A study of Mus musculus with 2 samples.

Results

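The Ifi200 family is a group of interferon-inducible genes whose proteins bind DNA. The 8 members described here are Ifi202b, Ifi203, Ifi204, Ifi205, Ifi207, Ifi211, Mndal and Aim2. They were chosen by gene symbol, as the matrix rows of both libraries that carry these names. All 8 were found, each in a single row, among 32285 listed genes, and all 8 had unique molecular identifiers (UMIs, tags that count RNA molecules) in both libraries.

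RNA was counted in single cells of 1 lung lobe (the lower lobe on the left side). The mice were males, 6 to 8 weeks old, of the outbred ICR stock. The group called LPS here was given bacterial lipopolysaccharide, which sets off lung inflammation. The group called LPS + miconazole was given lipopolysaccharide and, by intraperitoneal injection, miconazole (MCZ), an azole antifungal drug. The sample label gives 0.2 mg/kg MCZ and the protocol text gives 1 mg/kg, so the dose is uncertain. The number of mice, the lipopolysaccharide dose and route and the times are not given in the sources used here, and no library from untreated lung was analysed here. All mice of a group were pooled into 1 library. There is therefore no replicate, no spread between animals and no test. Intervals below are exact 95% intervals that cover counting error only.

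Most Ifi200 proteins join an N-terminal pyrin domain, which binds other pyrin domains, to a C-terminal HIN domain, which binds DNA. Aim2 senses DNA in the cytosol and recruits the adaptor Pycard (ASC) and caspase-1 into an inflammasome. Ifi204, often likened to human IFI16, is described as a DNA sensor that acts through Sting, and Ifi202b, which has HIN domains but no pyrin domain, is described as a brake on Aim2. In macrophages many of these genes are switched on by interferon, through DNA elements bound by the Stat and Irf factors.

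On mouse chromosome 1 (build GRCm38, GENCODE M21 annotation), 7 protein-coding members lie on the minus strand within 308 kb, from 173723427 to 174031810. They are Ifi207 (173723427 to 173741747), Ifi204 (173747293 to 173766943), Mndal (173849126 to 173942491), Ifi211 (173896345 to 173913046), Ifi203 (173920407 to 173942672), Ifi202b (173962568 to 173982744) and Ifi205 (174011998 to 174031810). Aim2 (173350879 to 173466040) lies on the plus strand, 257 kb from the others. The Mndal gene model overlaps those of Ifi203 and Ifi211 on the same strand, and shares exon sequence with Ifi203. Within the last 500 bases of each annotated transcript, where 3′ libraries are read, 59.4% of the 90-base windows of Ifi211 and 29.7% of those of Ifi205 occur unchanged in another family gene. The share was 9.33% for Mndal, 1.05% for Ifi203 and 0 for Ifi202b, Ifi204, Ifi207 and Aim2. The counts of Ifi205, Ifi211, Mndal and Ifi203 are therefore uncertain in how reads were split between near-identical copies.

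Promoter sequence is shown because these genes are known as interferon-inducible and stand below beside other interferon response genes. RefSeq promoter windows (GRCm38.p6, 250 bases before to 50 bases after the start site) were matched for 7 of the 8 members, by symbol. Ifi204 was not matched. The letters GAAA, any 2 bases and GAAA again, a form of the interferon-stimulated response element, were searched on both strands. They occurred in 3.44% of 32851 promoter windows. Among the members they occurred in 6 of 9 windows, which belong to 5 of the 7 members. The stretches below, 5′ to 3′ on the minus (gene) strand, carry the match in capitals. They lie at chr1:173942493-173942552 (Ifi203), chr1:173880189-173880248 (Mndal), chr1:174031855-174031914 (Ifi205), chr1:173913049-173913108 (Ifi211) and chr1:173741816-173741875 (Ifi207).
Ifi203: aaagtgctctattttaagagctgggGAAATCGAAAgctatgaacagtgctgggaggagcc
Mndal: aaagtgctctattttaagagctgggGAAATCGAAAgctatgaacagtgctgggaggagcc
Ifi205: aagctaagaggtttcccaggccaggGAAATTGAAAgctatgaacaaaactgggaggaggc
Ifi211: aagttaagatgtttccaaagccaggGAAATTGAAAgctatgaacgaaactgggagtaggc
Ifi207: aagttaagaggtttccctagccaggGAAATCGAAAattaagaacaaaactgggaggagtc

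The match began 35 bases before 1 of the 2 start sites of Ifi203. It began 36 bases before a start site in Mndal, 37 in Ifi211, 41 in Ifi207 and 134 in Ifi205. The Ifi203 and Mndal stretches were identical over all 60 bases. Ifi205 and Ifi211 shared 54 of 60 bases, Ifi205 and Ifi207 shared 52, and Ifi207 and Ifi211 shared 50. The stretch of Ifi203 and Mndal shared 39 to 41 bases with the other 3. Further matches lay 23 bases after the start site of Ifi205 and 54 bases before a further start site of Mndal, both on the other strand. The windows of Ifi202b and Aim2 held no match, nor did the window of the other Ifi203 start site. The letters TTCNNNGAA, a gamma-activated site, occurred in 8.30% of all windows. Among the members they occurred only in the window of Ifi202b, 148 bases before the start. A match of letters is a description of these windows and not a mapped binding site.

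The LPS library held 12577 barcodes and 90597705 UMIs and the LPS + miconazole library 8500 barcodes and 68467793 UMIs. After filters on genes, UMIs and mitochondrial share, 12075 and 8314 cells were kept, with median depths of 5809 and 6180 UMIs. Clustering without the members gave 26 clusters, of which 22 fell into 15 classes named by fixed markers; 4 clusters, mostly of low UMI count, stayed unnamed. Class names below mean likeness to those markers ("alveolar macrophage-like" and so on). Every marker of a named class had UMIs in that class in both libraries. The 2 libraries shared 243 kept barcodes, with medians of 723 and 995 UMIs, 183 of them in an unnamed cluster in at least 1 library. Leaving these cells out changed none of the 62 member calls made in the larger classes, and moved a log2 ratio by at most 0.10. The doublet caller marked 1 cell where 9.66% and 6.65% were expected and had not worked, so doublets remain in the classes.

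A level below is the member's UMIs per 1000000 UMIs (CPM) summed over the cells of a class in 1 library. A difference is the log2 ratio of LPS + miconazole over LPS with 1 CPM added to each. A member counts as measured in a class with at least 50 UMIs over both libraries, and is called lower or higher from a log2 ratio of 0.5 in size. Erythroid-like cells, which should lack these genes, serve as the background. They held 87012 CPM of the 12 neutrophil markers in LPS and 78772 CPM in LPS + miconazole, against 220025 and 200087 CPM in neutrophils. Their level can therefore hold RNA of neutrophils, which cannot be told apart from free RNA here, and a level near theirs does not show that a gene is silent.

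Macrophages and monocytes of the lung carried the highest levels of Ifi204, Ifi207, Ifi211 and Ifi202b, while T cells carried those of Ifi203 and Mndal. In each case the order below runs over all 15 classes, by the mean of the levels in the 2 libraries, and classes are said to overlap where their ranges over the libraries do. The plot of member levels by class shows each of them.

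**Figure D1:**
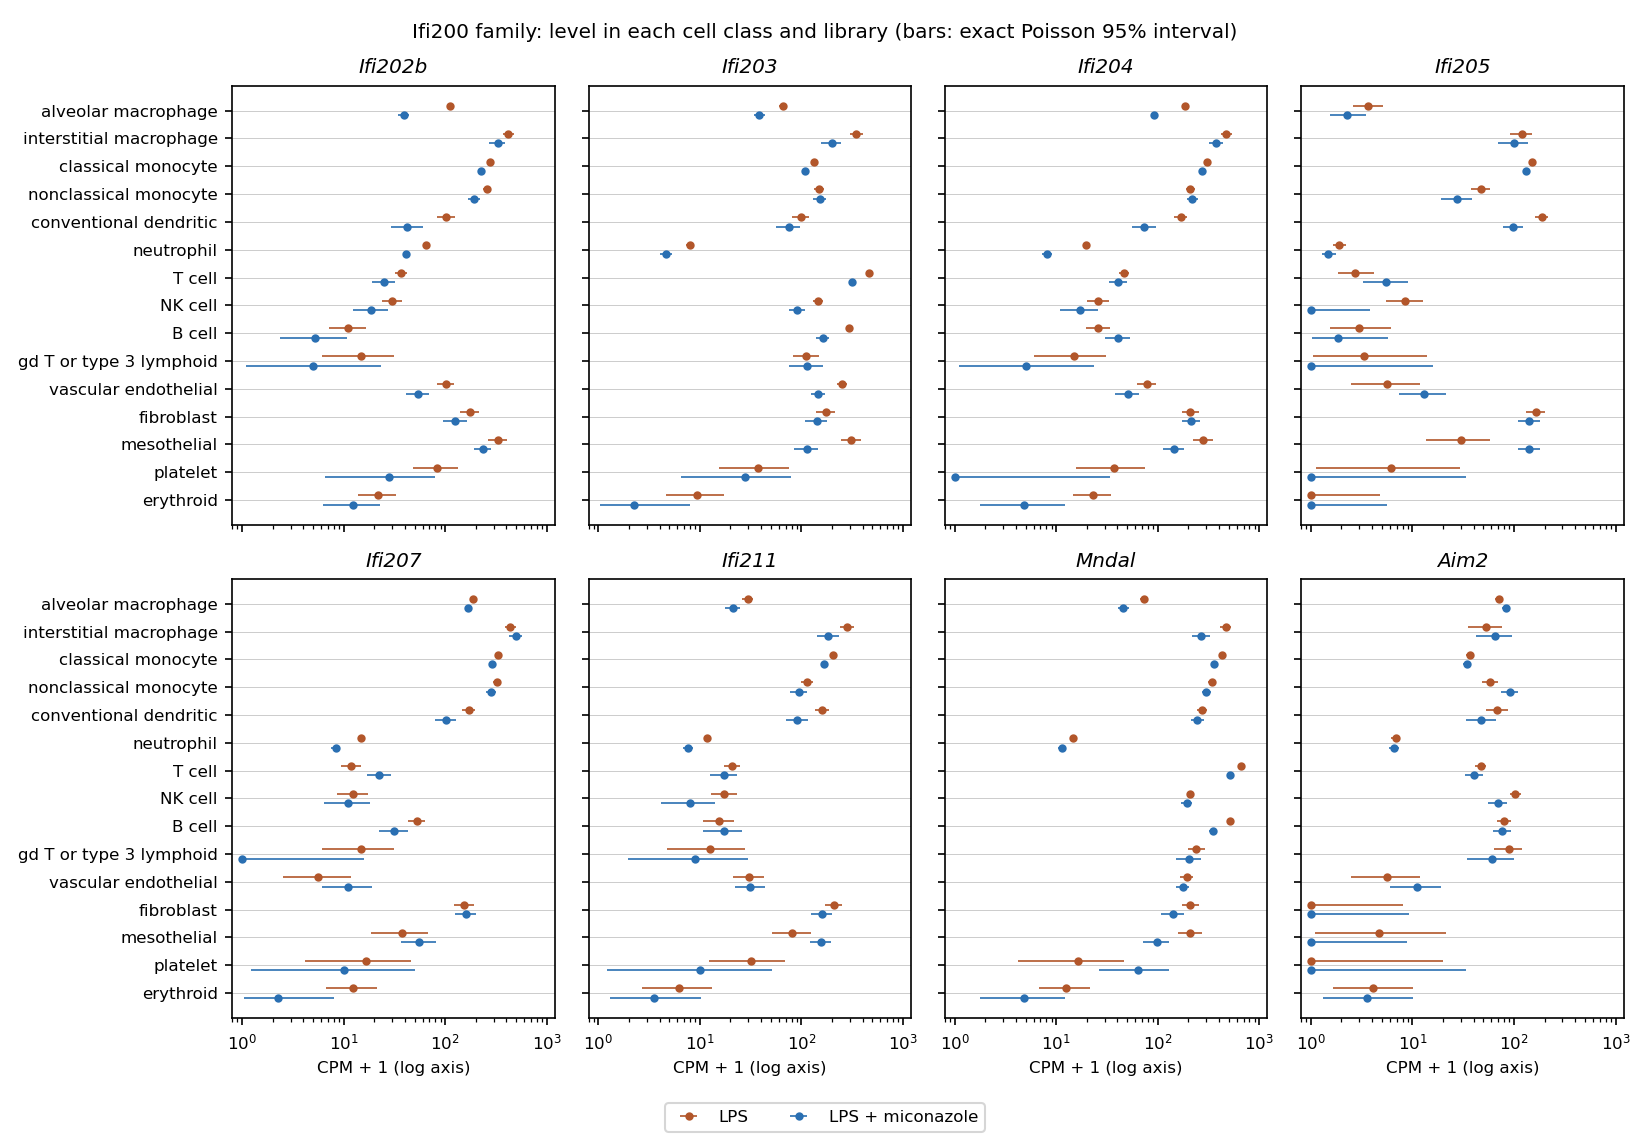
Level of the 8 members in 15 cell classes. The horizontal axis is CPM + 1 on a log scale, points are the LPS (brown) and LPS + miconazole (blue) libraries and bars are exact Poisson 95% intervals; Ifi203 and Mndal are highest in T cells, and Ifi205 is listed at 0 in erythroid-like cells of both libraries.

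Aim2, the inflammasome sensor, was highest in NK cells, at 102 CPM in LPS and 68.6 CPM in LPS + miconazole. B cells (78.2 and 75.4 CPM) and alveolar macrophages (70.3 and 81.6 CPM) followed, and these 3 classes overlapped. Gamma delta T or type 3 lymphoid cells, at 87.6 and 60.3 CPM on 38 and 15 UMIs, overlapped with all 3. Classical monocytes stood lower, at 35.8 and 33.4 CPM, and did not overlap with T cells above them (45.9 and 39.6 CPM). Neutrophils had 5.85 and 5.59 CPM against 3.12 and 2.54 CPM in erythroid-like cells. Fibroblasts and platelets had no Aim2 UMI in either library. Aim2 was thus spread over lymphocytes and macrophages, with monocytes of the classical kind and neutrophils lower.

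Ifi204 was highest in interstitial macrophages, with 471 CPM in LPS and 375 CPM in LPS + miconazole, and next in classical monocytes, with 306 and 271 CPM. These 2 classes did not overlap. Alveolar macrophages held rank 6 of 15, at 186 and 91.3 CPM. Neutrophils (18.7 and 7.09 CPM) overlapped with erythroid-like cells (21.8 and 3.81 CPM), so their Ifi204 did not stand apart from this background.

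Ifi202b had a similar top, with 419 and 327 CPM in interstitial macrophages, 329 and 233 CPM in mesothelial cells and 274 and 224 CPM in classical monocytes. Mesothelial cells overlapped with both of the others, which did not overlap with each other. Alveolar macrophages had 110 CPM in LPS and 38.0 CPM in LPS + miconazole. Neutrophils had 63.3 and 39.7 CPM, above the 20.8 and 11.4 CPM of erythroid-like cells. Of the 7 members with UMIs in erythroid-like cells, Ifi202b had the highest fold over them in neutrophils, which held 29.9% of its UMIs. B cells were lowest, at 10.0 and 4.23 CPM.

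Ifi203, a pyrin and HIN domain protein, was highest in T cells, at 467 and 317 CPM, overlapping with interstitial macrophages at 345 and 197 CPM. Mndal, named for its likeness to the myeloid nuclear differentiation antigen, was also highest in T cells, at 666 and 509 CPM, followed by B cells at 511 and 349 CPM and classical monocytes at 428 and 354 CPM. In alveolar macrophages the level of Ifi203 was 65.4 and 37.4 CPM and that of Mndal 72.2 and 45.0 CPM. Neutrophils had 6.96 and 3.64 CPM of Ifi203, which overlapped with the 8.31 and 1.27 CPM of erythroid-like cells.

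Ifi207 was highest in interstitial macrophages (437 and 497 CPM), then in classical monocytes (331 and 288 CPM) and nonclassical monocytes (321 and 282 CPM), which overlapped. Alveolar macrophages held rank 4, at 187 and 166 CPM, without overlap with either neighbour. Fibroblasts came next, at 153 and 158 CPM on 80 and 71 UMIs, and conventional dendritic cells after them at 170 and 100.3 CPM. The T cell level was 10.9 CPM in LPS and 21.4 CPM in LPS + miconazole.

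Ifi211 was highest in interstitial macrophages (280 and 183 CPM), classical monocytes (203 and 167 CPM) and fibroblasts (209 and 158 CPM), which overlapped, with 28.6 and 20.1 CPM in alveolar macrophages. Ifi205 is described as a regulator of the gene for ASC. Ifi205 was highest in fibroblasts (163 and 140 CPM), conventional dendritic cells (187 and 97.6 CPM) and classical monocytes (149 and 131 CPM). Alveolar macrophages had 28 UMIs of Ifi205 in all, or 2.66 and 1.27 CPM. Of all Ifi205 UMIs 80.5% were in classical monocytes, against 23.2% of those of Aim2. Ifi205 was thus the member with the largest fold between classical monocytes and alveolar macrophages.

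Across 20 sums (10 classes of at least 50 cells in each library), the levels of Ifi203 and Mndal had a Pearson r of 0.96 on the log2 scale, and those of Ifi205 and Ifi211 an r of 0.95. The r of Ifi204 and Ifi211 was 0.91 and that of Ifi204 and Ifi207 was 0.87. Ifi202b and Aim2 had the lowest, at 0.08. The points share 2 libraries and differ in depth, and Ifi203 with Mndal and Ifi205 with Ifi211 are pairs whose reads can be split, so these values are descriptions. Of 11827 other genes, the nearest in pattern were Nupr1 for Ifi202b (0.89), Pias2 for Ifi203 (0.96), Rasa4 for Ifi204 (0.95) and Papss2 for both Ifi205 (0.91) and Ifi211 (0.94). Ctss, a lysosomal protease of phagocytes, was nearest to Ifi207 (0.94), Dhrs4 to Mndal (0.97) and Mmgt2 to Aim2 (0.95).

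Between the libraries, members were mostly lower with miconazole, unequally by class. Of 62 pairs of a member and a class measured in the 9 larger classes with a measured member, 55 had a ratio below 0, 29 were called lower and 3 higher. The 29 and the counts by member include Ifi203, Ifi204 and Ifi207 in neutrophils and Ifi202b and Ifi204 in NK cells. No direction is given below for these pairs. Over all genes of the 9 classes, the share below 0 ranged from 33.6% to 51.8% by class. The share called lower ranged from 4.11% to 11.7% by class, and the share called higher from 4.14% to 16.1%. Ifi202b was lower in 6 of 8 such classes, Ifi203 in 6 of 9 and Ifi204 in 5 of 9. Aim2 was lower in 2 of 8, with a median log2 ratio of -0.08 over them, against -0.67 for both Ifi202b and Ifi203. The grid of ratios by class gives the values.

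**Figure D2:**
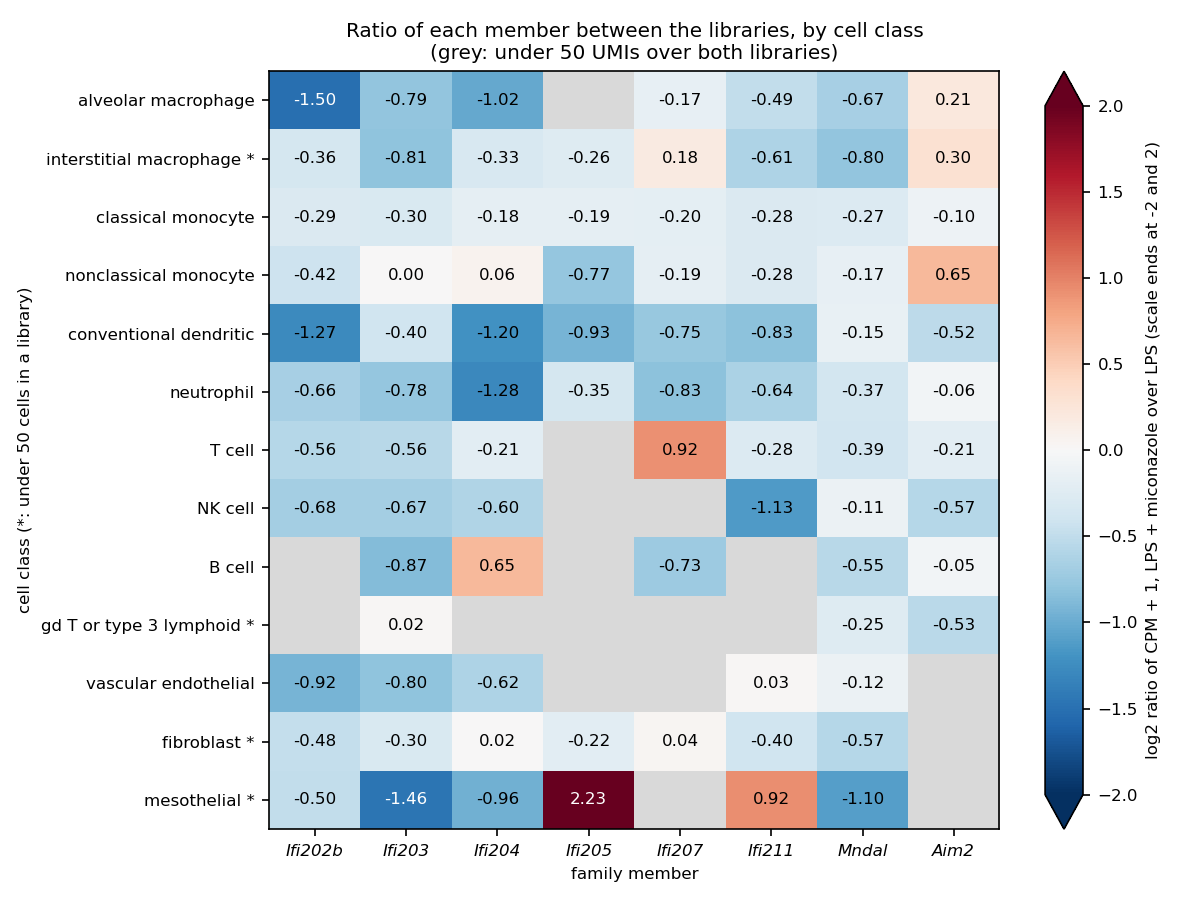
Log2 ratio of LPS + miconazole over LPS for each member (columns) in each class (rows), with 1 CPM added; blue is lower and red is higher with miconazole, and grey marks members with under 50 UMIs. Alveolar macrophages run from -1.50 for Ifi202b to 0.21 for Aim2, and classical monocytes from -0.30 to -0.10.

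In alveolar macrophages (354 cells in LPS and 267 in LPS + miconazole, from a single cluster) the members separated. Ifi202b, the reported brake on Aim2, was at 110 CPM in LPS (824 UMIs) and 38.0 CPM in LPS + miconazole (240 UMIs), a log2 ratio of -1.50 (interval -1.74 to -1.32), or 2.83-fold lower. Ifi204 was at 186 and 91.3 CPM (1399 and 576 UMIs), a log2 ratio of -1.02 (-1.17 to -0.89). Both were lower by more than the counting error, as were Ifi203 (-0.79, interval -1.04 to -0.58) and Mndal (-0.67, interval -0.89 to -0.47), although Mndal was at -0.32 after thinning to 2000 UMIs a cell, short of the call.

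Ifi211 was at -0.49 (-0.83 to -0.18), just short of the call, and Ifi207 at -0.17 (-0.29 to -0.06). Aim2 was at 70.3 CPM in LPS (529 UMIs) and 81.6 CPM in LPS + miconazole (515 UMIs), a log2 ratio of 0.21 (0.04 to 0.39), so that the inflammasome sensor was not lower. Ifi205 was not measured. Of 7 measured members 4 were called lower, where 6.07% of 9742 measured genes were, and none higher, where 11.7% were. The members' median was -0.67 and that of all genes 0.02.

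Summed levels of markers of other classes were also taken in the alveolar macrophage class. The summed level there of 7 classical monocyte markers was 572 CPM in LPS and 645 CPM in LPS + miconazole, and all 7 had UMIs in both. The sum of 9 interstitial macrophage markers was 62.5 and 115 CPM, and that of 12 neutrophil markers 7516 and 10437 CPM, again all detected. Summed erythroid markers were at 703 and 350 CPM. The part of all these marker sums in the ratios was not tested. Without the barcodes that both libraries hold, the log2 ratio was -1.48 for Ifi202b, -1.02 for Ifi204, -0.74 for Ifi203, -0.64 for Mndal and 0.19 for Aim2. With the level of erythroid-like cells subtracted in each library it was -1.70 for Ifi202b and -0.90 for Ifi204.

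Cell by cell the same members stood out. Each cell was thinned to 2000 UMIs, which left out 9 alveolar macrophages of LPS and none of LPS + miconazole, whose median depths before thinning were 21941 and 22884 UMIs. The share of cells with an Ifi202b UMI was 15.4% of 345 cells in LPS (11.7% to 19.6%) and 5.62% of 267 cells in LPS + miconazole (3.18% to 9.10%). The share for Ifi204 was 27.8% (23.2% to 32.9%) and 12.0% (8.34% to 16.5%). For these 2 members the intervals of the libraries did not overlap. Thinned to 1000 UMIs, the shares were 9.89% (6.98% to 13.5%) and 1.87% (0.611% to 4.32%) for Ifi202b, still apart, and 12.4% (9.18% to 16.3%) and 7.12% (4.34% to 10.9%) for Ifi204, which then overlapped.

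For Ifi207 the thinned share was 27.8% and 29.6%, and for Aim2 it was 13.04% and 17.2%, with overlapping intervals. In erythroid-like cells, at median depths of 6931.5 and 6890.5 UMIs before thinning, the share was 3.97% and 1.89% for Ifi202b and 3.17% and 0 for Ifi204, where 0 of 106 cells allows a share of up to 2.83% by the rule of 3 cells of the total (the Clopper-Pearson upper limit is 3.42%). Before thinning, the alveolar macrophage shares were 66.1% and 37.8% for Ifi202b and 64.7% and 74.9% for Aim2. The bars of thinned shares show all 8 members.

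**Figure D3:**
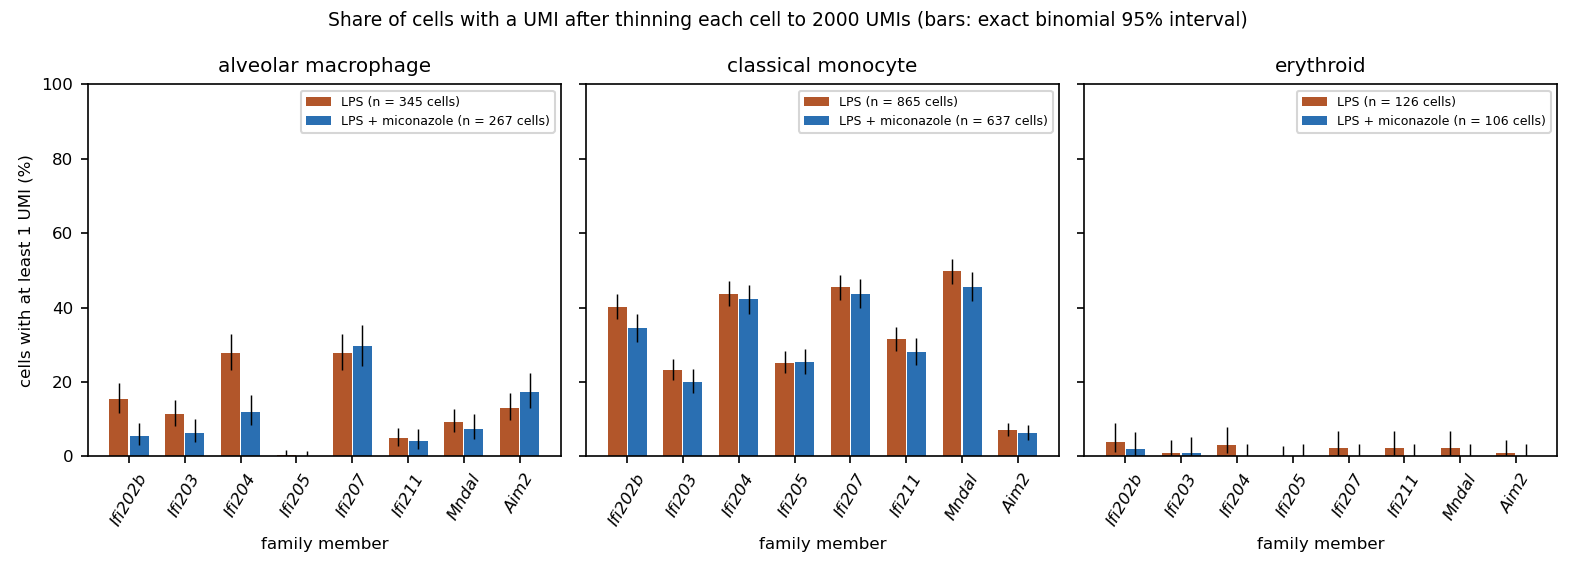
Share of cells with at least 1 UMI of each member after thinning to 2000 UMIs, in percent, for the LPS (brown) and LPS + miconazole (blue) libraries; bars start at 0 and error bars are exact binomial 95% intervals. In alveolar macrophages Ifi202b (15.4% and 5.62%) and Ifi204 (27.8% and 12.0%) differ beyond these intervals.

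An unnamed cluster of 281 and 161 cells with low UMI counts had the alveolar macrophage markers as its nearest list. There 3 of 6 measured members were called lower, where 8.61% of 4971 genes were, and none higher (14.5%). Ifi204 was at -0.72 (-1.16 to -0.29), Mndal at -0.77 (-1.39 to -0.20) and Ifi202b at -0.48 (-1.003 to 0.020). Ifi207 was at 0.00 and Aim2 at -0.07. The intervals of Ifi202b did not overlap between this cluster and the named class.

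Classical monocytes (895 and 654 cells), the class with the most UMIs of 6 of the 8 members, kept close levels in both libraries. Ifi202b was at 274 and 224 CPM (4074 and 2787 UMIs), a log2 ratio of -0.29 (-0.36 to -0.22). The ratio of Ifi204 was -0.18 (-0.24 to -0.11), that of Mndal -0.27 (-0.33 to -0.22) and that of Aim2 -0.10 (-0.29 to 0.08). All 8 measured members were below 0, where 45.4% of 10873 genes were, and none was called lower (4.11% of genes) or higher (4.14%). The median was -0.24 against 0.02 for all genes, and -0.16 without the barcodes found in both libraries.

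Neither the intervals of Ifi202b nor those of Ifi204 overlapped between classical monocytes and alveolar macrophages. The difference between these classes was not tested, as each rests on 1 pair of libraries. The classical monocyte class joined a large cluster (836 and 616 cells), in which none of the 8 members was called (3.75% of genes lower and 4.73% higher), and a cycling cluster of 59 and 38 cells. In the cycling cluster Ifi203 was lower (-0.79, where 8.71% of genes were) and Ifi205 higher (0.52, where 6.32% were).

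Nonclassical monocytes (223 and 115 cells), which patrol vessel walls, had 1 of 8 members lower (6.42% of 6061 genes) and 1 higher (8.13%). The lower member was Ifi205, at 46.0 and 26.6 CPM (91 and 30 UMIs), with a log2 ratio of -0.77 (-1.44 to -0.18). The higher member was Aim2, at 57.1 and 90.3 CPM (113 and 102 UMIs), with a log2 ratio of 0.65 (0.26 to 1.06). Ifi204 was at 0.06 (-0.17 to 0.29) and Ifi202b at -0.42 (-0.66 to -0.19). With a stricter cell filter Ifi205 was at -0.46, and after thinning it was not measured. Aim2 was hence above 0 in both nonclassical monocytes and alveolar macrophages. In the small interstitial macrophage class (48 and 35 cells) it was at 0.30, with an interval of -0.55 to 1.14.

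Conventional dendritic cells (81 and 55 cells), the antigen-presenting cells of the lung, had 6 of 8 members called lower, where 11.7% of 4962 genes were, and none higher (16.1%). Ifi202b was at 101 and 41.4 CPM (102 and 31 UMIs), a log2 ratio of -1.27 (-1.92 to -0.70). Ifi204 was at -1.20 (-1.69 to -0.77) and Ifi205 at -0.93 (-1.35 to -0.54). Mndal had the smallest ratio, -0.15 (-0.43 to 0.12), and Aim2 was at -0.52 with an interval that held 0 (-1.16 to 0.08), a call that ended under 5 alternatives, at -0.49 to -0.05. The class median was -0.79 against 0.04 for all genes. In the same cells the summed level of 14 alveolar macrophage markers was 340 CPM in LPS, where Ear2, Siglecf, Krt79 and Cidec were at 0, and 1173 CPM in LPS + miconazole, where none was. Summed interstitial macrophage markers moved the other way, from 142 CPM (8 of 9 detected) to 85.6 CPM (5 of 9, with C1qb, Cd163, Folr2 and Lyve1 at 0), and summed erythroid markers went from 3048 to 449 CPM. The part of these markers in the ratios was not tested. At 2000 UMIs a cell 65 and 48 cells remained and only 1 member was measured.

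T cells (849 and 294 cells), in which Ifi203 and Mndal were highest, had 2 of 7 measured members lower (4.39% of 9024 genes) and 1 higher (6.86%). Ifi203 was at 467 and 317 CPM (2697 and 769 UMIs), a log2 ratio of -0.56 (-0.67 to -0.44), and Ifi202b also at -0.56 (-1.03 to -0.16). Mndal was at -0.39 (-0.48 to -0.30), below 0 and short of the call. Thinned to 2000 UMIs, 52.6% of 756 cells (49.0% to 56.3%) and 44.7% of 275 cells (38.8% to 50.8%) had an Ifi203 UMI, against 0.794% and 0.943% of erythroid-like cells, so the T cell share was above that of erythroid-like cells in both libraries. The count of 2 was 1 after thinning, with 10 CPM added or with the erythroid level subtracted, where Ifi202b was at -0.34, -0.43 and -0.25.

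The member called higher in T cells was Ifi207, with 63 UMIs in 26 of 849 cells and 52 UMIs in 14 of 294 cells, a log2 ratio of 0.92 (0.42 to 1.53), or 0.17 by the mean CPM per cell. The share of cells with a UMI after thinning was 1.06% and 0.727%, with overlapping intervals and below the 2.38% of erythroid-like cells in LPS. Summed classical monocyte markers in T cells were at 794 CPM in LPS and 1131 CPM in LPS + miconazole, and alveolar macrophage markers at 188 and 398 CPM. Their part in the Ifi207 ratio was not tested.

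NK cells (367 and 152 cells), which held the highest Aim2, had 5 of 6 measured members lower, where 6.91% of 7296 genes were, and none higher (5.61%). The 5 include Ifi202b and Ifi204, whose levels overlapped with those of erythroid-like cells. No direction is therefore given for Ifi202b and Ifi204 in NK cells. With the erythroid level of each library subtracted, Ifi204 was at 1.68. Aim2 was at 102 and 68.6 CPM (261 and 89 UMIs), a log2 ratio of -0.57 (-0.94 to -0.22). This call ended under 4 alternatives, at -0.14 after thinning and -0.48 to -0.46 in the others, and the thinned share of cells with an Aim2 UMI was 17.96% (14.0% to 22.5%) and 16.8% (11.2% to 23.8%). Ifi211 was at -1.13 on 42 and 9 UMIs (-2.47 to -0.18), and Ifi203 at -0.67 (-0.99 to -0.38). Ifi203 was at -0.23 after thinning and -0.39 by the mean CPM per cell, and its thinned share was 17.96% and 18.1%. Summed erythroid markers in NK cells went from 6103 CPM in LPS to 743 CPM in LPS + miconazole and interstitial macrophage markers from 41.8 to 22.4 CPM (5 of 9 detected in each), while alveolar macrophage markers went from 174 to 395 CPM. Their part in these ratios was not tested. The count of 5 depended on the processing and was 3, 1 or 0 under several alternatives given in the closing section.

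B cells (303 and 109 cells) had 3 of 5 measured members lower (9.07% of 7067 genes) and 1 higher (11.7%). Ifi203 was at 296 and 161 CPM (590 and 190 UMIs), a log2 ratio of -0.87 (-1.12 to -0.64), and Mndal at 511 and 349 CPM, a log2 ratio of -0.55 (-0.72 to -0.38). Ifi204 was higher, with 50 and 47 UMIs and a log2 ratio of 0.65 (0.06 to 1.27). This fell short of the call with a stricter cell filter (0.38) and by the mean CPM per cell (0.12). Its B cell levels were 25.1 and 39.8 CPM, against 21.8 and 3.81 CPM in erythroid-like cells. The LPS level was thus near this background, and the ratio reached 3.12 over the alternatives. Aim2 was at -0.05 (-0.45 to 0.33). The count of 3 was 0 after thinning and 1 by the mean CPM per cell. Ifi203 was at -0.475 after thinning and -0.496 by the mean CPM per cell, and Mndal at -0.26 and -0.27. In T cells, by contrast, the Ifi203 call held under all 13 alternatives, from -0.68 to -0.53. Vascular endothelial cells (216 and 201 cells), which line the vessels, had 3 of 5 measured members lower (9.54% of 6161 genes) and none higher (10.9%), namely Ifi202b (-0.92), Ifi203 (-0.80) and Ifi204 (-0.62, or -0.26 with the erythroid level subtracted).

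Neutrophils were 62.8% of cells in LPS and 69.0% in LPS + miconazole and had 5 of 8 members lower, where 4.34% of 10642 genes were, and none higher (12.7%). Ifi202b, the member furthest above erythroid-like cells, was at 63.3 CPM (2984 UMIs) and 39.7 CPM (1484 UMIs), a log2 ratio of -0.66 (-0.76 to -0.58). Ifi211 was at 10.9 and 6.63 CPM, a log2 ratio of -0.64, above the 5.20 and 2.54 CPM of erythroid-like cells. Over the alternatives its ratio ranged from -0.86 to -0.33. The ratio of Ifi204 was -1.28, that of Ifi207 -0.83 and that of Ifi203 -0.78. These 3 were at levels that overlapped with those of erythroid-like cells, which were lower with miconazole too. With the erythroid level of each library subtracted, Ifi202b was the only member still called lower, at -0.57. Ifi204 was then at 2.10, Ifi203 at 1.75 and Ifi207 at 1.08. As erythroid-like cells carry neutrophil markers, the subtraction can also take away RNA of neutrophils, and its part was not tested. No direction is therefore given for Ifi203, Ifi204 and Ifi207 in neutrophils.

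The 7 neutrophil clusters were filled unequally by the libraries, from 1914 against 176 cells to 224 against 1176 cells. Ifi202b was below 0 in all 7, with log2 ratios from -0.99 to -0.36, and the LPS level (55.7 to 71.0 CPM) was above the LPS + miconazole level (31.2 to 49.6 CPM) in each. Of the measured members, 4 of 7 were lower in cluster 0 (13.8% of genes), 3 of 6 in cluster 1 (12.4%), 4 of 7 in cluster 2 (6.22%) and 6 of 6 in cluster 3 (15.5%). The count was 4 of 6 in cluster 4 (6.55%), 2 of 4 in cluster 5 (7.86%) and 5 of 6 in cluster 16 (9.57%). Ifi203, Ifi204 and Ifi207, for which no direction is given in neutrophils, enter these counts where measured. The counts therefore give no direction for the family as a whole. No member was higher in any of these clusters, where 21%, 19.6%, 19.6%, 18.3%, 11.2%, 21.6% and 22.5% of genes were, in the same order. Aim2 differed between clusters, with 25.6 and 13.9 CPM in cluster 3 and 2.03 and 2.48 CPM in cluster 4. Cluster 3, where its level was lower with miconazole, held 1.86% of LPS cells and 14.1% of LPS + miconazole cells. The Aim2 levels of the whole class, 5.85 and 5.59 CPM, are thus taken over clusters filled unequally by the libraries. The plot of neutrophil clusters shows the levels of Ifi202b, Ifi204 and Aim2.

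**Figure D4:**
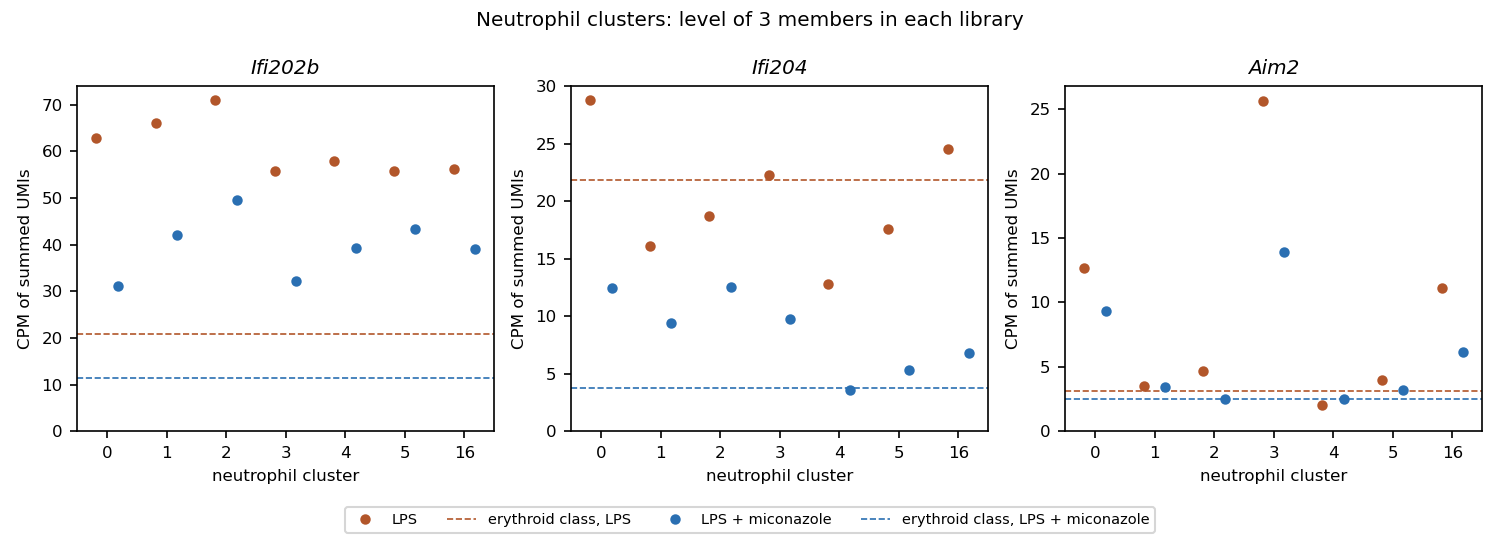
Level of Ifi202b, Ifi204 and Aim2 in 7 neutrophil clusters (horizontal axis, cluster number), in CPM of summed UMIs, for the LPS (brown) and LPS + miconazole (blue) libraries; dashed lines are the erythroid-like level of each library. Ifi202b lies above both lines in all clusters, and Ifi204 lies below the LPS line (21.8 CPM) in 4 of 7 clusters of LPS.

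Among classes of under 50 cells in a library, interstitial macrophages had 3 of 8 members lower (13.4% of genes) and none higher (27.1%). Ifi203 was at -0.81, Mndal at -0.80 and Ifi211 at -0.61, while Ifi202b (-0.36) and Ifi204 (-0.33) were short of the call. Fibroblasts (51 and 34 cells) had 1 of 7 lower (17.4%), Mndal at -0.57, and none higher (11.3%). Gamma delta T or type 3 lymphoid cells had 1 of 3 lower (18.8%), Aim2 at -0.53 on 38 and 15 UMIs, and none higher (9.1%).

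Mesothelial cells (37 and 42 cells), which cover the lung surface, had 3 of 6 lower (19.1%) and 2 higher (13.8%). Ifi203 was lower at -1.46, Mndal at -1.10 and Ifi204 at -0.96. Ifi205 was higher at 2.23 (1.21 to 3.54), with 8 UMIs in 6 of 37 cells and 67 UMIs in 9 of 42 cells. Ifi211 was higher at 0.92 (0.23 to 1.69). The higher Ifi205 thus rested on few cells.

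The number of members seen in 1 cell differed by class. After thinning to 2000 UMIs, classical monocytes had on average 2.66 members a cell in LPS and 2.46 in LPS + miconazole, and 92.6% and 91.8% of cells had at least 1. Alveolar macrophages had 1.10 and 0.82 members a cell, and 12.8% and 4.12% of them had 3 or more. Neutrophils had 0.23 and 0.14 members a cell. At least 1 member was seen in 18.6% and 11.6% of neutrophils, against 12.7% and 2.83% of erythroid-like cells. Before thinning, all 8 members were seen in 14.7% and 20.0% of classical monocytes, whose median depths were 14390 and 16489 UMIs.

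Other genes of these pathways were taken from lists. In alveolar macrophages 16 of 18 measured genes of the type I and II interferon response were lower and none higher, where 6.07% and 11.7% of all genes were, with a median of -0.90. Of the 18 genes, 5 were above the level of erythroid-like cells in both libraries, and 4 of these were lower, with a median of the 5 of -0.58. Rsad2, an antiviral enzyme, was at 365 and 104 CPM (-1.80), Ifit2 at -1.72, Oasl1 at -1.61, Usp18 at -1.58, Ifit3 at -1.54 and Ifit1 at -1.50. Among these 6, only Oasl1 (254 and 82.6 CPM) was above erythroid-like cells (125 and 35.5 CPM) in both libraries. Erythroid-like cells had 1057 and 634 CPM of Rsad2. Their Ifit1 was at 402 and 128 CPM, against 259 and 90.7 CPM in alveolar macrophages. Their Ifit3 was at 297 and 91.3 CPM, against 67.3 and 22.5 CPM, and Usp18 at 56.1 and 25.4 CPM, against 31.0 and 9.67 CPM. Ifit2 was at 63.4 and 15.2 CPM, against 55.2 and 16.0 CPM. No direction is therefore given for Rsad2, Ifit1, Ifit2, Ifit3 and Usp18 in alveolar macrophages, in which summed neutrophil markers were below those of erythroid-like cells (7516 against 87012 CPM in LPS). Ifi202b and Ifi204, unlike these, were above erythroid-like cells in both libraries. The levels of the interferon receptor genes Ifnar1 (-0.09), Ifnar2 (-0.22), Ifngr1 (0.45) and Ifngr2 (-0.08) were not called.

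The partners of Aim2 were also within the call. Of 10 measured genes of the Aim2 inflammasome and pyroptosis list, none was lower or higher in alveolar macrophages, with a median of 0.10. Il1b, the cytokine that caspase-1 matures, was at 2753 and 1956 CPM (-0.49), below the 5469 and 3528 CPM of erythroid-like cells. The adaptor Pycard was at 0.41, Casp1 at -0.33, Nlrc4 at -0.33, Il1rn at -0.27 and Nlrp3 at 0.20. Il1rn, at 663 and 552 CPM, was also below erythroid-like cells (759 and 565 CPM). Of 13 measured genes of cytosolic DNA sensing through Sting, 2 were lower and 2 higher, with a median of -0.01. The lower genes were Trim30a (-0.94) and Zbp1 (-0.93), both known to be induced by interferon. The higher ones were Ikbke (0.70) and Xrcc6 (0.51, on 43 and 54 UMIs). Trim30a, Zbp1 and Ikbke were all below the level of erythroid-like cells in both libraries. Ikbke was at 44.9 and 73.7 CPM, against 79.0 and 218 CPM in erythroid-like cells. No direction is therefore given for Trim30a, Zbp1 and Ikbke. Tmem173, which encodes Sting itself, was at -0.21 and Tbk1 at -0.19.

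**Figure D5:**
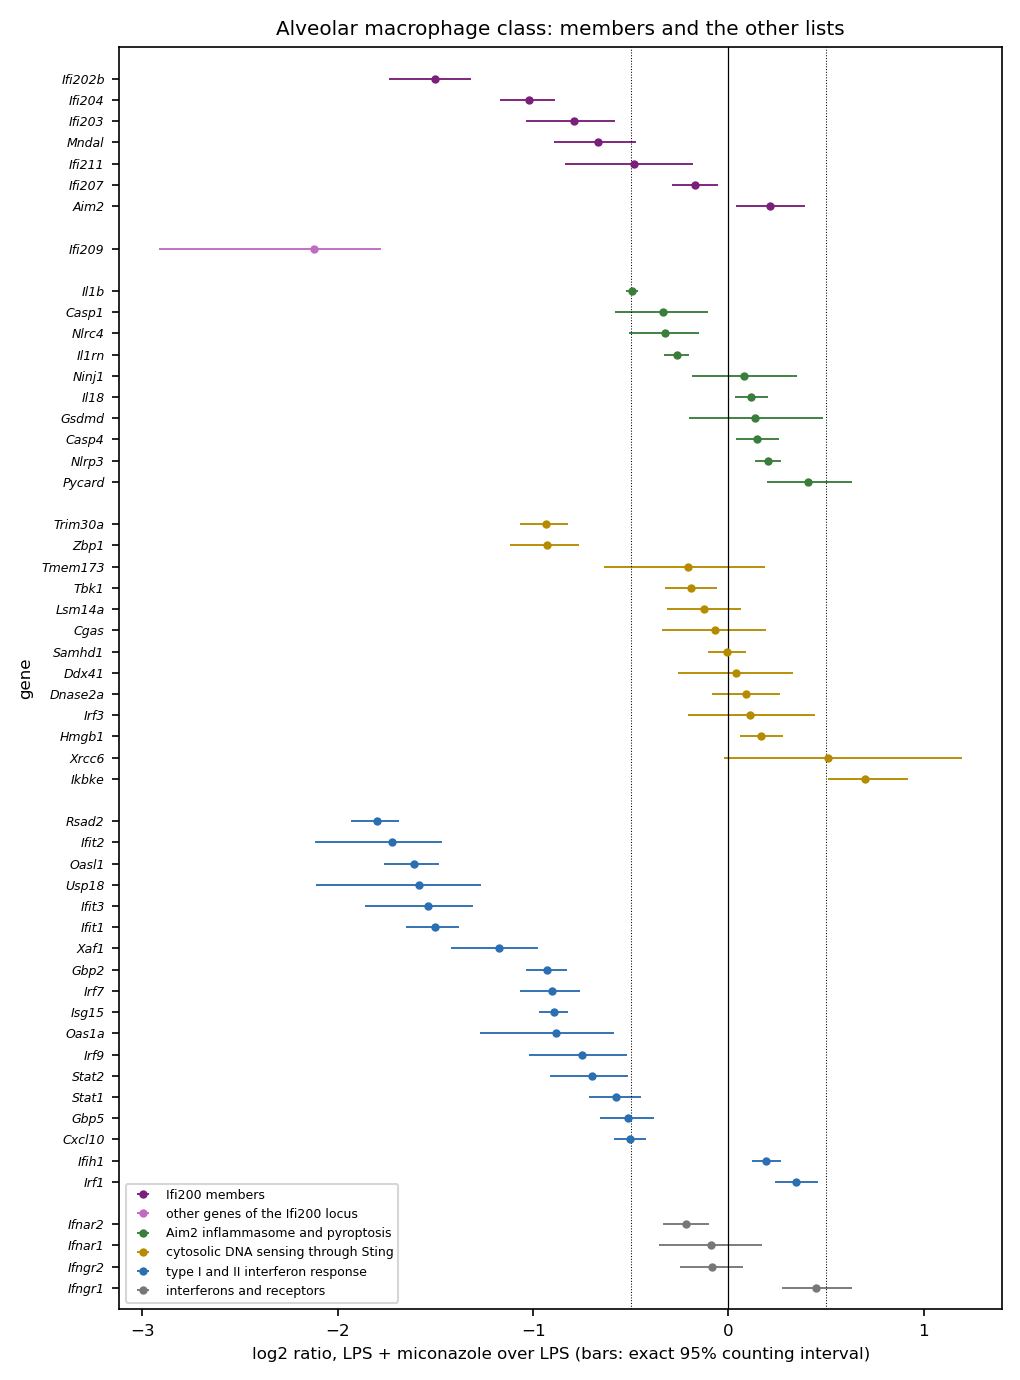
Log2 ratio of LPS + miconazole over LPS in alveolar macrophages for the 7 measured members and 5 gene lists; points are ratios with 1 CPM added, bars are exact 95% counting intervals, and dotted lines mark a ratio of 0.5 in size. Ifi202b (-1.50) and Ifi204 (-1.02) lie in the range of the interferon response genes, of which 5 of 18 were above the erythroid-like level in both libraries. Aim2 (0.21) and Ifi207 (-0.17) lie in the ranges of the inflammasome partners of Aim2, of DNA sensing through Sting and of the interferon receptors.

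Of 11 other genes of the Ifi200 locus, 5 were found in the matrices. In alveolar macrophages only Ifi209 was measured, at 25.4 and 5.07 CPM (-2.12, interval -2.91 to -1.78). In T cells 4 of 5 were lower (4.39% of all genes) with a median of -0.67, led by Ifi206 (80.5 and 37.9 CPM, -1.07) and Ifi209 (110 and 59.4 CPM, -0.88). In B cells 4 of 4 were lower (9.07%), among them Ifi214 (-1.05) and Ifi208 (-1.01). In classical monocytes 2 of 5 were (4.11%), Ifi213 on 70 and 4 UMIs and Ifi208 (-0.70), while Ifi209 was at 190 and 140 CPM (-0.44). These genes share sequence and locus with the members, and how reads were split among them was not tested.

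By class, the interferon response list and the members stood side by side as follows. The list's median was -0.96 in conventional dendritic cells, -0.70 in T cells, -0.50 in NK cells and -0.46 in both B cells and classical monocytes, where the members' median was -0.79, -0.28, -0.64, -0.55 and -0.24. In nonclassical monocytes the medians were -0.16 for the list and -0.18 for the members. Over the list genes above erythroid-like cells in both libraries, a choice made after the values were seen, the list's median was -0.69 in conventional dendritic cells (10 of 18 genes), -0.46 in T cells (10 of 18) and 0.07 in NK cells (3 of 18). It was -0.29 in B cells (4 of 17) and 0.07 in classical monocytes (9 of 19), so the sign of the list's median turned in NK cells and classical monocytes. Both gene sets come from the same 2 libraries, so their likeness is a description.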

How the data were processed

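Whole-number UMI counts per gene and barcode were deposited for each library, made by the authors with bcl2fastq 2.20 and Cell Ranger on mm10, per the submitters' processing notes, and the file headers name Cell Ranger 7.0.0. Whether intronic reads were counted, and how reads that match several genes were handled, is not given in the sources used here; ICR reads were set against a C57BL/6 reference. Barcodes with at least 200 genes, 500 UMIs and at most 20% mitochondrial UMIs were kept. Counts were scaled to 10000 per cell, and 2000 variable genes, without the members and the other lists, were clustered by Leiden (scanpy 1.11.5, 30 components, 15 neighbours, resolution 1). A cluster was named from at least 3 fixed markers at a log2 of 1 over the baseline; the treatment of leading genes and of clusters under 0.333 of the library's median UMIs was set after the clusters were seen. Counts were then summed by class and library. Ratios add 1 CPM; their intervals are exact conditional binomial intervals without it. Shares have Clopper-Pearson and levels Poisson intervals, all at 95%. UMIs of a cell are not independent samples of animals. All 8 members are named; of the other lists, up to 6 genes a list with at least 50 UMIs and the largest ratio in alveolar macrophages; values of the locus genes in other classes were picked after they were seen. For likeness, genes had at least 200 UMIs. The members and lists were chosen with earlier results of these data known. Scripts used Python 3.11.15, numpy 2.4.6 and scipy 1.17.1.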

Additional observations from a re-analysis of the deposited data

Results flagged for a closer look

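Of the 8 members, 5 had a ratio past 0.5 in size above 0 in some cell class and below 0 in another. These differences between classes were not tested, since each class has 1 library a group, and each value is a log2 ratio of LPS + miconazole over LPS. Ifi204 was at 0.65 in B cells, on 50 and 47 UMIs (0.38 with a stricter cell filter and 0.12 by the mean CPM per cell). Its B cell level in LPS (25.1 CPM) was near that of erythroid-like cells (21.8 CPM). Ifi204 was at -1.28 in neutrophils, where its level overlapped with that of erythroid-like cells and no direction is given. Ifi205 was at 2.23 in mesothelial cells, on 8 and 67 UMIs, and at -0.93 in conventional dendritic cells. Ifi207 was at 0.92 in T cells, where 26 and 14 cells held its UMIs, and at -0.83 in neutrophils, where its level likewise overlapped and no direction is given. Ifi211 was at 0.92 in mesothelial cells and at -1.13 in NK cells. Aim2 was at 0.65 in nonclassical monocytes and at -0.57 in NK cells, where it was at -0.14 after thinning and short of the call under 4 alternatives.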

How the results depend on the processing

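Each ratio and count was recomputed under up to 13 alternatives, of which 2 (barcodes of both libraries left out, low-UMI clusters given their nearest class) were chosen after seeing the data. Of the recomputed counts, medians and shares 214 kept their direction and stayed within 1.5 times the count or within the counting interval, 20 moved further and 2 turned; of the single ratios 709 stayed, 52 moved and 5 turned. In alveolar macrophages the number of members lower ranged from 3 to 5 and their median from -0.76 to -0.55, Ifi202b from -1.73 to -1.32, Ifi204 from -1.43 to -0.90 and Aim2 from 0.16 to 0.34. Thinning each cell to 2000 UMIs left 0 members lower in B cells, NK cells, conventional dendritic cells and nonclassical monocytes and 1 in T cells, with fewer members measured. The mean CPM per cell gave 1 in B cells and 1 in NK cells. The stricter cell filter gave 3 in NK cells and 0 in nonclassical monocytes, and removing the highest doublet scores gave 3 in NK cells. A pseudocount of 10 CPM gave 3 in NK cells, 1 in T cells and 2 in neutrophils, with a neutrophil median of -0.32. With the erythroid level subtracted the number was 3 in NK cells, 1 in T cells and 1 in neutrophils. The direction then turned for the neutrophil median (0.60) and for Ifi203 (1.75), Ifi204 (2.10) and Ifi207 (1.08) in neutrophils. It also turned for Ifi204 in NK cells (1.68). In both classes the levels of the members that turned overlapped with the erythroid ones, and no direction is given for these pairs. The part of this background in the ratios was not tested. With each library clustered separately the B cell median turned to 1.26 and Ifi207 in B cells to 0.87; the cause was not tested. At a minimum of 10 UMIs, which brings in more members, the vascular endothelial median was -0.046. Without the shared barcodes the classical monocyte median was -0.16. Thinned to 1000 UMIs, the share of alveolar macrophages with an Ifi204 UMI differed by -5.31 percentage points, against -15.8 at 2000. No paired analysis was possible because each group has 1 library and the labels give no replicate numbers. Depth limits Ifi205 in alveolar macrophages (28 UMIs) and most members in erythroid-like cells and platelets.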
